A study of Homo sapiens with 24 samples.

Results

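The regions described here are the ATAC-seq peaks around PTGER3, CD276, MCF2L, ARHGEF26 and RHOBTB1 in T47D cells, a luminal breast cancer line established from a human tumour, which carries the estrogen receptor. ATAC-seq counts fragments released by the Tn5 transposase, which inserts into open chromatin. A peak belongs to a gene if its midpoint lies within 50 kb of the gene's hg38 interval, which gave 137 of the 189403 deposited peaks. Of these, 32 lie around PTGER3, 19 around CD276, 43 around MCF2L, 20 around ARHGEF26 and 23 around RHOBTB1. The filter on low counts left 114 for testing, in the same order 26, 17, 31, 19 and 21, and the other 23 have no fitted value. The 5 genes were chosen because each holds a peak that rose very steeply with estradiol, so the estradiol values below describe the choice and carry no test.

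The study has 6 groups of 4 libraries. In 2 groups the cells were starved of hormone for 3 days, in medium free of phenol red with 10% serum stripped by charcoal, and then given vehicle (0.1% DMSO) or 1 nM beta estradiol for 1 h. In the other 4 groups the cells stood in complete medium with 10% serum for 1 day and were then given vehicle (0.1% DMSO) or 100 nM fulvestrant, raloxifene or tamoxifen for 1 h. The 2 vehicle groups differ in medium, serum treatment and days in culture together, which cannot be told apart.

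The estrogen receptor is a transcription factor that estradiol switches on, and in breast cancer cells it binds mostly at enhancers away from promoters, often at sites prepared by forkhead factors. Fulvestrant is a pure antagonist that leads to loss of the receptor, whereas raloxifene and tamoxifen are selective modulators that keep it in place. The 5 genes have different products. PTGER3 encodes EP3, a receptor for prostaglandin E2 coupled to G proteins. CD276 encodes B7-H3, a surface protein of the B7 family of immune checkpoints. MCF2L (also Dbs) and ARHGEF26 (also SGEF) are Dbl-type exchange factors, which load small GTPases with GTP. RHOBTB1 carries BTB domains and can bring substrates to a Cullin 3 ubiquitin ligase.

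Library totals ran from 434598 to 12140005 counts in peaks. The lowest is fulvestrant replicate 4 and the second lowest, with 2422981, is starved vehicle replicate 3. In complete medium, vehicle replicates 3 and 4 are named as DMSO in title and description but as fulvestrant in the treatment label. They were grouped by title, and the differences of lead peaks and named further peaks that rest on them are also given without them. The labels do not tie replicates to separate cultures. Each p-value therefore reflects only how far these libraries scatter, which may be technical. Peaks near 8 luminal epithelial genes summed to between 1050 and 2090 CPM (the count scaled to the library's total) per library over 165 peaks. Peaks near 6 basal and mesenchymal genes summed to between 214 and 329 CPM over 58 peaks, and those near 5 blood cell genes to between 140 and 315 CPM over 29 peaks. These sums grow with the number of peaks. The mean per peak was 11.4 CPM for the luminal, 5.1 for the basal and mesenchymal and 9.97 for the blood cell genes.

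The promoters of CD276, MCF2L, ARHGEF26 and RHOBTB1 were open before estradiol was added, unlike the peaks that rose. The 250 bases before 1 start site are printed for each of the 4 genes with an entry in the RefSeq promoter table (GRCh38.p14), 5′ to 3′ on the gene's strand. Each overlaps an open peak, called the promoter peak of the gene below. Other start windows also overlap open peaks, with means of 14.9 CPM at chr13:113001482-113001703 (MCF2L) and 11.4 CPM at chr10:60944172-60944372 (RHOBTB1). Their estradiol log2 differences were 0.13 and 0.03. Capitals mark bases under a deposited peak, taking the deposited positions as counted from 1. The windows are chr15:73684133-73684382 (+) for CD276, chr13:112894085-112894334 (+) for MCF2L, chr3:154121140-154121389 (+) for ARHGEF26 and chr10:61001441-61001690 (-) for RHOBTB1.
CD276: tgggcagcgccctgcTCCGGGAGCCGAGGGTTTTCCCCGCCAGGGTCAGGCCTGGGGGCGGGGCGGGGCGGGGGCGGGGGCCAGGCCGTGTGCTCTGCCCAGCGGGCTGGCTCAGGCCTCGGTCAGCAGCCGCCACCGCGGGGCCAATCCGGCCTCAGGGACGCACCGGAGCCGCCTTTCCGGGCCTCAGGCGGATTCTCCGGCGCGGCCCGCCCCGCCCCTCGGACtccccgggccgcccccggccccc
MCF2L: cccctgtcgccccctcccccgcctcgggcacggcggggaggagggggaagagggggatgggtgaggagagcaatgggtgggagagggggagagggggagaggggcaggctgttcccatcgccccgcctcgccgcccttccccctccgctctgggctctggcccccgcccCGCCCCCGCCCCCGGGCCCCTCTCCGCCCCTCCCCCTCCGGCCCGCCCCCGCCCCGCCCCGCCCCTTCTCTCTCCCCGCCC
ARHGEF26: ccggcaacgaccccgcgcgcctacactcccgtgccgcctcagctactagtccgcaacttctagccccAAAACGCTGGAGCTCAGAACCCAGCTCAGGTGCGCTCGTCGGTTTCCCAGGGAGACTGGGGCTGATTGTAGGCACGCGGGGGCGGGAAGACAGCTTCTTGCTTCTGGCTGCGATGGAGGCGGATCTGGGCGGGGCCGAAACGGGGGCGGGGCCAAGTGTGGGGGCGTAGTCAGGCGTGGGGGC
RHOBTB1: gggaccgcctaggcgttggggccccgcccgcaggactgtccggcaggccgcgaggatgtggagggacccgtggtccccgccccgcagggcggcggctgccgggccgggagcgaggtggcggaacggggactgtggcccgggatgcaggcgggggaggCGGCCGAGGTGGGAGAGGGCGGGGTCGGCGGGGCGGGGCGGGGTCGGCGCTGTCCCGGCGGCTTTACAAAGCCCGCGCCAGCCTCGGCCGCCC
The capitals cover 212 bases at CD276, 81 at MCF2L, 183 at ARHGEF26 and 93 at RHOBTB1. The 4 windows are rich in G and C, with 80.8%, 80.4%, 67.6% and 80.4%. None of these 4 holds the core of an estrogen response element (an inverted repeat of GGTCA with a spacer) on either strand. None holds AGGTCA (the repeat unit with 1 further base, called a single arm here), a forkhead core (TGTTTAC) or an AP-1 core (TGANTCA). Among 35116 promoter windows of the same length, 0.0399%, 12.1%, 2.98% and 6.57% hold these motifs. An AGGTCA within a core was counted under both. The shorter GGTCA was not counted by itself, and the CD276 window holds it.

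CD276 has 2 start windows, MCF2L 7, ARHGEF26 2 and RHOBTB1 4, and 12.1% of all promoter windows hold a single arm. Single arms (AGGTCA) did occur at 2 other start windows of these 4 genes. They are printed for their spacing, with TGACCT, the arm read on the other strand, in capitals. The RHOBTB1 stretch is chr10:61001204-61001232 (-) and the MCF2L stretch is chr13:112969012-112969021 (+).
RHOBTB1 arms: ggTGACCTggttacctttcgcTGACCTcc
MCF2L arm: ggTGACCTcg
The nearest peak to the pair of RHOBTB1 arms is the promoter peak, 0.198 kb away, and that of MCF2L lies 0.327 kb away. Neither peak was called with estradiol, at log2 differences of -0.23 and -0.03. A match is a description of letters, and the sequences of the peaks that rose were not analysed here.

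Each gene held exactly 1 peak called higher with estradiol, that is with an edgeR adjusted p under 0.05 over all peaks, and no gene held one called lower. These 5 are the lead peaks below. They are 4.39% of the 114 tested peaks, beside 0.813% called higher and 0.0223% called lower among all 156745 tested peaks, a share that follows from how the genes were chosen. Among peaks called higher with a mean level at or above the median, 994 in all, the lead peaks rank 2 (MCF2L), 3 (ARHGEF26), 4 (PTGER3), 5 (CD276) and 6 (RHOBTB1) by log2 difference. The other 109 tested peaks ranged from -0.84 to 1.78, with a median of 0.01 beside -0.01 over all tested peaks. None of the 5 lead peaks overlaps a start window. In a bulk assay, more cells with an open site and a more open site in each cell cannot be told apart.

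**Figure D1:**
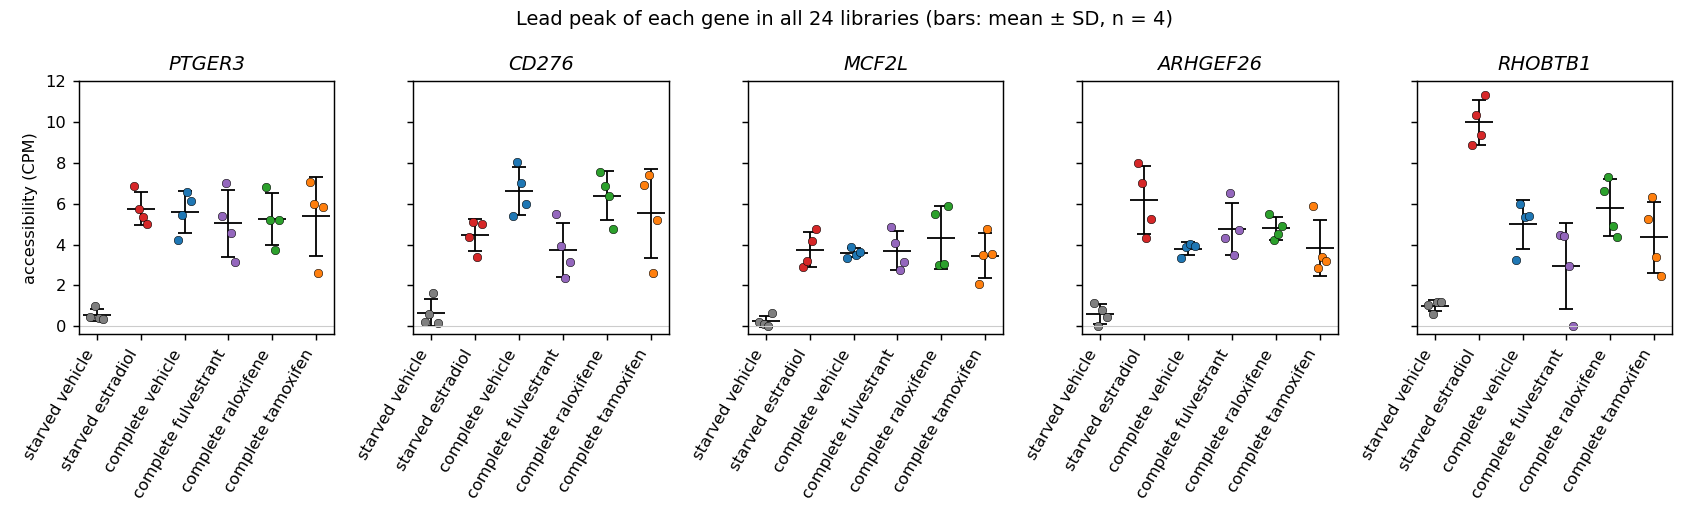
CPM of the lead peak of each gene in all 24 libraries (points) by group, with horizontal bars for the mean and vertical bars for the SD of 4 libraries. Starved vehicle libraries lie at or under 1.604 CPM in all 5 panels, and only at RHOBTB1 do the estradiol libraries, 8.88 to 11.3 CPM, lie above every library in complete medium.

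PTGER3, the prostaglandin receptor gene, has its lead peak inside the gene at chr1:70915420-70915718. The 4 starved vehicle libraries held 0.461, 0.995, 0.401 and 0.364 CPM there. With estradiol the 4 libraries held 6.88, 5.76, 5.36 and 5.01 CPM. The lowest estradiol library exceeds the highest vehicle library, a gap that describes the choice of the gene and tests nothing. The counts behind these values sum to 17 and 211. The means were 0.555 ± 0.296 and 5.75 ± 0.811 CPM (SD, n = 4), a fitted log2 difference of 3.31 (SE 0.37), or 9.91-fold. Complete medium with vehicle gave 4.22, 5.46, 6.59 and 6.13 CPM, which overlaps the estradiol libraries. Group means ran from the starved vehicle through fulvestrant (5.04 CPM), raloxifene (5.23 CPM), tamoxifen (5.37 CPM) and complete vehicle (5.60 CPM) to estradiol. Only the first step of that order separates groups whose libraries do not overlap.

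The PTGER3 lead peak has a weak companion 0.704 kb away, at chr1:70916173-70916373, with 0.23 ± 0.272 CPM in starved vehicle and 0.914 ± 0.347 CPM with estradiol (SD, n = 4). Its estradiol log2 difference was 1.78 (SE 0.65), the highest among the 109 other peaks, and it was not called. The strongest PTGER3 peak, chr1:71047722-71047975, sits at the end of the gene's interval. It held 26.9 ± 3.52 CPM in starved vehicle, 30.7 ± 1.99 with estradiol and 29.1 ± 1.14 in complete vehicle, so it was open in each of these groups.

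CD276, the B7-H3 gene, has its lead peak inside the gene at chr15:73710153-73710447, 25.5 kb from its start. Starved vehicle libraries held 0.231, 0.622, 1.604 and 0.182 CPM, where the 1.604 is the shallow replicate 3, and rest on 13 counts in all. Estradiol libraries held 4.38, 5.12, 3.40 and 5.01 CPM, all above every vehicle library. The fitted log2 difference was 3.30 (SE 0.44). Complete vehicle libraries held 5.41, 8.06, 6.997 and 5.98 CPM, each higher than the highest estradiol library. It is the only lead peak of the 5 whose mean was higher in complete vehicle (6.61 ± 1.17 CPM, SD, n = 4) than with estradiol (4.48 ± 0.788 CPM). The fitted estradiol minus complete vehicle difference was -0.58 (SE 0.22), given without a test because the estradiol libraries also chose the gene. The neighbour at chr15:73712141-73712376, 1.96 kb away, was already open in starved vehicle (5.56 ± 1.70 CPM) and differed by 0.37 (SE 0.22) with estradiol. The promoter peak of CD276 held 9.32 ± 1.82 CPM in starved vehicle and 10.4 ± 1.13 with estradiol.

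MCF2L, the first of the exchange factors, has its lead peak 19.3 kb from its start, inside the gene, at chr13:112913531-112913764. Starved vehicle libraries held 0.231, 0.124, 0 and 0.637 CPM, or 10 counts in all, of which replicate 4 gave 7. Estradiol libraries held 2.88, 3.20, 4.17 and 4.76 CPM, so no libraries of the groups overlap. The fitted log2 difference of 3.45 (SE 0.46) rests on those few vehicle counts, and without starved vehicle replicate 4 it was 4.46. Complete vehicle libraries held 3.35, 3.90, 3.50 and 3.65 CPM, inside the estradiol range, and the fitted difference of estradiol minus complete vehicle was 0.07 (SE 0.25). No other tested MCF2L peak lies within 3 kb of it. The MCF2L promoter peak was level, at 11.3 ± 1.55 CPM in starved vehicle and 11.3 ± 1.56 with estradiol. The highest peak of the window, chr13:112885898-112886105, lies nearer to ATP11A, a phospholipid flippase gene, and held 45.6 and 44.6 CPM in the same groups.

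ARHGEF26, the other exchange factor, has its lead peak inside the gene and 97.5 kb from its start, at chr3:154218720-154219017. Starved vehicle libraries held 1.15, 0, 0.802 and 0.455 CPM, from 17 counts. Estradiol libraries held 8.01, 7.03, 4.34 and 5.27 CPM, all well above them. The fitted log2 difference was 3.39 (SE 0.37), and 4.15 without starved vehicle replicate 1, which gave 10 of the 17 counts. Complete vehicle libraries were close together at 3.35, 3.90, 4.01 and 3.94 CPM and lay under the lowest estradiol library. The fitted difference of estradiol minus complete vehicle was 0.67 (SE 0.23). A peak 1.76 kb away, chr3:154220509-154220748, held 3.41 CPM in starved vehicle and 6.53 CPM with estradiol, a log2 difference of 0.80 (SE 0.23) that was not called. The ARHGEF26 promoter peak held 21.4 ± 4.25 and 20.2 ± 2.58 CPM.

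RHOBTB1 differs from the other 4 genes in that its lead peak lies outside the gene, 11.9 kb beyond the 3′ end, at chr10:60848749-60849107. The nearest of its 4 starts is 95.3 kb away and lies inside the gene. It is not the start whose window is printed above, which lies farther off. Starved vehicle libraries held 1.04, 0.622, 1.20 and 1.18 CPM. Estradiol libraries held 8.88, 10.3, 9.35 and 11.3 CPM. The fitted log2 difference was 3.30 (SE 0.29). Complete vehicle libraries held 3.24, 5.98, 5.35 and 5.40 CPM, between the 2 starved groups and overlapping neither. The fitted difference of estradiol minus complete vehicle was 1.01 (SE 0.20), the largest of the 5 lead peaks. A peak 0.549 kb away, chr10:60848274-60848483, held 2.99 CPM in starved vehicle and 5.30 CPM with estradiol, a log2 difference of 0.98 (SE 0.27), not called. The RHOBTB1 promoter peak held 13.3 ± 2.09 CPM in starved vehicle and 10.8 ± 1.26 with estradiol. Without the 2 complete vehicle libraries of conflicting labels the differences of estradiol minus complete vehicle were 0.739 at ARHGEF26, -0.591 at CD276, 0.061 at MCF2L, 0.255 at PTGER3 (0.04 with all libraries) and 1.138 at RHOBTB1.

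**Figure D2:**
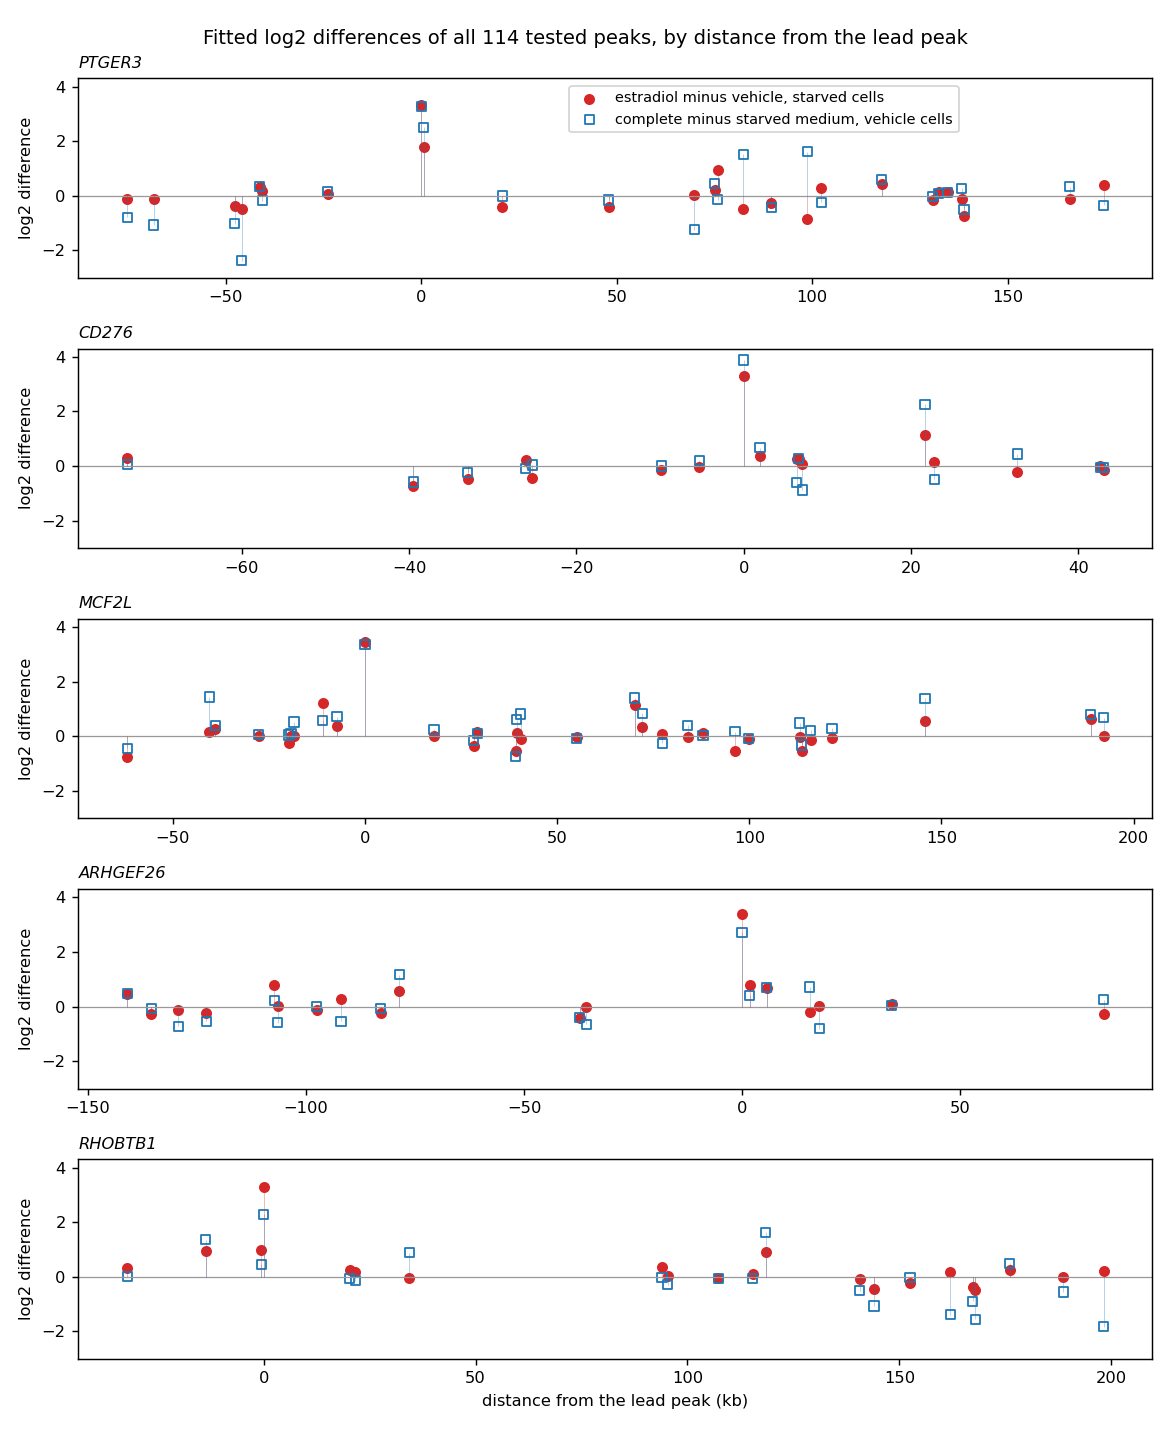
Fitted log2 difference of each of the 114 tested peaks against its distance from the lead peak in kb, 1 panel per gene, with filled circles for estradiol minus vehicle in starved cells and open squares for complete minus starved medium in vehicle cells. Estradiol differences reach 3.30 to 3.45 at distance 0 and stay between -0.84 and 1.78 elsewhere, while the squares depart from 0 at more positions.

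Across the 24 libraries the log2 CPM of the lead peaks moved together, with Pearson's r between pairs from 0.579 (MCF2L and RHOBTB1) to 0.898 (PTGER3 and CD276). Over the 16 libraries in complete medium alone the range was -0.0356 to 0.614. These values are a description, since all pairs share the low starved vehicle libraries and the libraries' depths. By the same measure, over 24 libraries, the peaks over 1 Mb away most like each lead peak are named here by their nearest gene, however far. For PTGER3 they were inside TMPRSS3 (r 0.94), 84.4 kb from FHL2 (r 0.931) and 64.5 kb from NHLRC1 (r 0.927). For CD276 they were inside PLOD2 (r 0.945), 13.3 kb from A4GALT (r 0.94) and 318 kb from SH2D4B (r 0.939). For MCF2L they were 36.0 kb from ELF1 (r 0.936) and inside SLC6A6 (r 0.935) and NFIC (r 0.93). For ARHGEF26 they were 47.2 kb from ZDHHC19 (r 0.912) and inside SEC61A2 (r 0.91) and GAS6 (r 0.904). For RHOBTB1 they were inside SIAH2 (r 0.952), PGR (r 0.95) and PAK4 (r 0.948), of which PGR encodes the progesterone receptor.

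The comparison of media asks how the same regions stand in vehicle cells in complete and in starved medium, which differ in more than hormones. It shares the starved vehicle libraries with the contrast that chose the genes, so the lead peaks are given as values. Their log2 differences, complete minus starved, were 3.27 (PTGER3), 3.89 (CD276), 3.38 (MCF2L), 2.72 (ARHGEF26) and 2.29 (RHOBTB1). Without the 2 complete vehicle libraries of conflicting labels they were 3.06, 3.90, 3.39, 2.65 and 2.17. Without starved vehicle replicate 4 the MCF2L value was 4.39, and without starved vehicle replicate 1 the ARHGEF26 value was 3.48.

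In all, 15 of the 114 member peaks (13.2%) were called higher in complete medium, beside 7.93% of all tested peaks, and 13 (11.4%) lower, beside 9.91%. Without the lead peaks 10 of 109 (9.17%) were higher and 13 (11.9%) lower, so the other peaks were called at shares near those of all peaks. The median log2 difference was 0.04 over the members and 0.02 over all tested peaks. Without the 2 libraries of conflicting labels 125 member peaks were tested. Of these 14 were higher, 12 of them called before, and 6 lower, all 6 called before. In that fit 8570 of all 171350 tested peaks were higher and 9320 lower, beside 12423 and 15537 of 156745 with all libraries. Without complete vehicle replicate 3 alone 17 member peaks were higher and 8 lower, beside 10626 and 12817 of all 162952 tested peaks. By gene, PTGER3 had 4 higher and 5 lower, CD276 3 and 1, MCF2L 3 and 0, ARHGEF26 2 and 1, and RHOBTB1 3 and 6. Without complete vehicle replicate 3 the same counts were 4 and 3, 2 and 0, 6 and 0, 2 and 0, and 3 and 5. Without the 2 libraries of conflicting labels they were 3 and 2, 2 and 0, 4 and 0, 2 and 0, and 3 and 4. Differences between the genes were not tested.

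**Figure D3:**
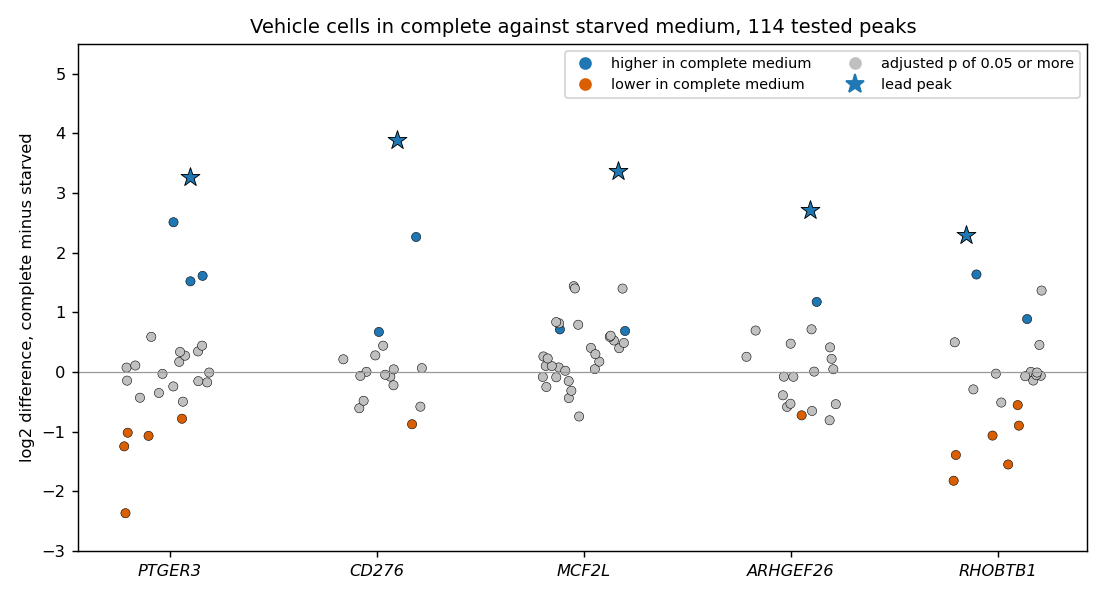
Fitted log2 difference, complete minus starved vehicle, of the 114 tested peaks by gene, with stars for lead peaks and colour for peaks called higher or lower by edgeR at an adjusted p under 0.05. The horizontal place of a point within a gene is random. The lead peaks top each column at 2.29 to 3.89, and 5 of the 13 peaks called lower lie at PTGER3 and 6 at RHOBTB1.

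At PTGER3 a peak inside the gene, chr1:71014149-71014408, was higher in complete medium. Starved vehicle libraries held 1.61, 1.87, 3.21 and 1.18 CPM, and complete vehicle libraries 4.76, 6.63, 4.63 and 4.53 CPM, with no overlap. Its log2 difference between media was 1.61 (SE 0.30, edgeR adjusted p = 2.06e-05). Estradiol libraries held 1.38, 1.07, 0.595 and 0.772 CPM, which overlaps the starved vehicle. The estradiol difference of -0.84 (SE 0.43) was not called. The companion of the lead peak, chr1:70916173-70916373, was also higher in complete medium (2.51, SE 0.58, edgeR adjusted p = 0.00084), with 3.39 without starved vehicle replicate 2. Within replicates 1 and 2 alone it was 2.06 and no longer called. Another peak, chr1:70869569-70869769, fell from 1.84, 2.49, 3.61 and 2.00 CPM to 0.433, 0.26, 0.206 and 0.876 CPM. That difference was -2.37 (SE 0.47, edgeR adjusted p = 9.73e-05), and estradiol libraries held 1.597 ± 0.31 CPM (SD, n = 4). The 3 PTGER3 differences were 1.76, 2.48 and -2.59, all called, without the 2 libraries of conflicting labels.

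At CD276 the further peak with the smallest p was chr15:73731850-73732090, which lies nearer to INSYN1, a gene for a protein of inhibitory synapses. It held 0, 0.124, 0.802 and 0.546 CPM in starved and 1.73, 1.17, 1.75 and 1.17 CPM in complete vehicle libraries. The difference was 2.26 (SE 0.57, edgeR adjusted p = 0.00211), but 4.33 within replicates 1 and 2 and 1.301, not called, within replicates 3 and 4. It was 2.26 and still called without the 2 libraries of conflicting labels. Calls at 2 other CD276 peaks depended on single libraries. The fall at chr15:73717177-73717437 (-0.88, SE 0.24, edgeR adjusted p = 0.00627) was -0.65 and not called without complete vehicle replicate 3. The rise of the lead peak's neighbour at chr15:73712141-73712376 (0.67, SE 0.21, edgeR adjusted p = 0.017) was lost without any of complete vehicle replicates 1 and 3 and starved vehicle replicates 1 and 2, at values from 0.59 to 0.61. Without the 2 libraries of conflicting labels neither was called, at -0.60 and 0.70.

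At MCF2L the peak chr13:112906227-112906450, 7.31 kb from the lead peak, held 6.45, 6.22, 11.2 and 8.65 CPM in starved and 12.7, 13.1, 13.9 and 9.63 CPM in complete vehicle libraries. The difference was 0.71 (SE 0.17, edgeR adjusted p = 0.000988), though the shallow starved replicate 3 lies within the complete range. Within replicates 3 and 4 it was 0.38 and not called, and without the 2 libraries of conflicting labels it was 0.77 and called. The other MCF2L peak called, chr13:113105694-113105926, overlaps the start window of F7, the gene of coagulation factor VII, and differed by 0.69 (SE 0.22, edgeR adjusted p = 0.0217). It was not called without any of starved vehicle replicates 1 and 2 and complete vehicle replicates 3 and 4, at 0.48 to 0.63, nor without the 2 libraries of conflicting labels, at 0.50.

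At ARHGEF26 the peak chr3:154140122-154140345, inside the gene and nearer to its start, held 3.11, 1.74, 0 and 2.55 CPM in starved and 5.08, 5.20, 5.15 and 5.26 CPM in complete vehicle libraries. The groups do not overlap, and the difference was 1.18 (SE 0.27, edgeR adjusted p = 0.0006). Estradiol libraries held 2.88, 4.05, 3.91 and 2.44 CPM, which overlaps the starved vehicle. The difference between media was 1.18 and still called without the 2 libraries of conflicting labels. The peak chr3:154089495-154089731, outside the gene, was lower in complete medium (-0.73, SE 0.21, edgeR adjusted p = 0.0127). That call was lost without starved vehicle replicate 2 (-0.54), without complete vehicle replicate 3 (-0.67) and without the 2 libraries of conflicting labels (-0.58).

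RHOBTB1 held a run of lower peaks on the side of its outermost start, the one whose window is printed above. Of the 6 peaks beyond the start end of its interval, 5 were called lower in complete medium and none higher. Among all tested peaks 9.91% were called lower and 7.93% higher. The 6 peaks were singled out after their values were seen, so the count tests nothing. The 5 peaks called lower are taken in order. Their differences were -1.39 (SE 0.36), -0.90 (SE 0.28), -1.55 (SE 0.29), -0.55 (SE 0.13) and -1.82 (SE 0.52), at 8.94, 14.2, 14.9, 35.7 and 45.2 kb from the gene. The edgeR adjusted p-values were 0.00266, 0.0171, 2.36e-05, 0.000617 and 0.00765. Estradiol differences over the 6 peaks ran from -0.50 to 0.27, and none was called. At chr10:61016713-61016951 the starved vehicle libraries held 3.80, 4.97, 4.41 and 5.19 CPM, the estradiol libraries 2.63, 3.84, 3.23 and 3.47 CPM and the complete vehicle libraries 0.973, 1.43, 2.16 and 1.75 CPM. No complete vehicle library reached the lowest library of either starved group.

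The highest peak of the run, chr10:61037502-61037744, held 34.7, 34.8, 18.8 and 35.4 CPM in starved vehicle and 24.5, 22.5, 21.2 and 22.04 CPM in complete vehicle. The 18.8 is the shallow replicate 3, and it lies under the complete range. Without the 2 libraries of conflicting labels 4 of the 5 remained called, and the farthest, at 45.2 kb, was -1.57 with an edgeR adjusted p of 0.093. Within replicates 1 and 2 alone 2 were called lower, and within replicates 3 and 4 alone 3. Of all tested peaks 9320 of 171350, 11191 of 155719 and 6270 of 160761 were lower in these 3 fits, in the same order. On the other side, chr10:60967330-60967553 inside the gene was higher in complete medium, with 2.27, 1.69, 2.37 and 2.92 CPM against 0.807, 0.497, 1.604 and 0.637 CPM. The difference was 1.64 (SE 0.41, edgeR adjusted p = 0.00199), and within either pair of replicates alone it was 1.59 or 1.63 and not called. It was 1.45 and still called without the 2 libraries of conflicting labels.

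Of 13 tested member peaks that overlap a start window of any gene, 2 were called between media, those of F7 and of LINC00845 in the RHOBTB1 run, and none with estradiol. These counts are too small to set against the 7.93% higher and 9.91% lower of all tested peaks, or the 0.813% higher with estradiol. The 6 that overlap a start window of CD276, MCF2L, ARHGEF26 or RHOBTB1 had estradiol differences of -0.23 to 0.21 and media differences of -0.29 to 0.10.

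The antagonist comparisons set groups in complete medium against each other, and the estradiol difference that chose the genes did not compare these groups. Complete medium libraries still entered the choice, through the median level required of a lead peak and through the fit of all libraries together. Levels of the lead peaks in complete medium are therefore not independent of the choice. None of the 114 member peaks was called for fulvestrant, raloxifene or tamoxifen against vehicle by edgeR, beside 0%, 0.000638% and 0% of all tested peaks. At an unadjusted p under 0.05 there were 8 (7.02%), 2 (1.75%) and 4 (3.51%), beside 3.96%, 3.81% and 4.13% of all tested peaks. Without the 2 vehicle libraries of conflicting labels there were 6, 2 and 4 of 125 member peaks, with none called. Beside these stand 5989, 7691 and 7834 of all 171350 tested peaks at an unadjusted p under 0.05. DESeq2 called none either.

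At the CD276 lead peak the fulvestrant libraries held 5.49, 3.95, 2.38 and 3.14 CPM and the vehicle libraries 5.41, 8.06, 6.997 and 5.98 CPM. Only fulvestrant replicate 1 reached the vehicle range, and the shallow replicate 4 rests on 2 counts. The log2 difference was -0.64 (SE 0.25, interval -1.13 to -0.15), with an unadjusted p of 0.013 and an edgeR adjusted p of 0.9996. Without the 2 vehicle libraries of conflicting labels it was -0.65, within replicates 1 and 2 it was -0.46 and within replicates 3 and 4 it was -1.44. Raloxifene (6.40 ± 1.18 CPM) and tamoxifen (5.54 ± 2.18 CPM, SD, n = 4) overlapped the vehicle, at -0.02 (interval -0.43 to 0.39) and -0.27 (interval -0.71 to 0.17). These values were -0.03 and -0.27 without the 2 libraries of conflicting labels.

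The RHOBTB1 lead peak under fulvestrant held 4.48, 4.44, 2.93 and 0 CPM, the last from the shallow library. Its difference was -0.30 (interval -0.82 to 0.22), but -0.01 within replicates 1 and 2 and -1.06 within replicates 3 and 4. Raloxifene differed by 0.25 (interval -0.18 to 0.69) and tamoxifen by -0.24 (interval -0.72 to 0.25) from vehicle. The 3 differences at RHOBTB1 were -0.17, 0.39 and -0.10 without the 2 libraries of conflicting labels. At PTGER3 the 3 antagonists differed from vehicle by 0.02, -0.08 and -0.05, each 0.33 to 0.45 within replicates 1 and 2 and -0.54 to -0.56 within replicates 3 and 4. Without the 2 libraries of conflicting labels they were 0.24, 0.14 and 0.18, so raloxifene and tamoxifen changed sign there. At MCF2L the antagonists differed from vehicle by 0.19, 0.26 and -0.05, and at ARHGEF26 by 0.35, 0.34 and 0.02. Without those 2 libraries the values were 0.18, 0.26 and -0.06 at MCF2L and 0.43, 0.41 and 0.095 at ARHGEF26. All intervals of these 3 genes include 0, and the widest runs from -0.35 to 0.72 (MCF2L, fulvestrant). At 4 of the 5 lead peaks no antagonist brought the mean of complete medium under 3 CPM, and at RHOBTB1 fulvestrant gave 2.96 ± 2.10 CPM, against 1.01 ± 0.27 in starved vehicle (SD, n = 4).

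**Figure D4:**
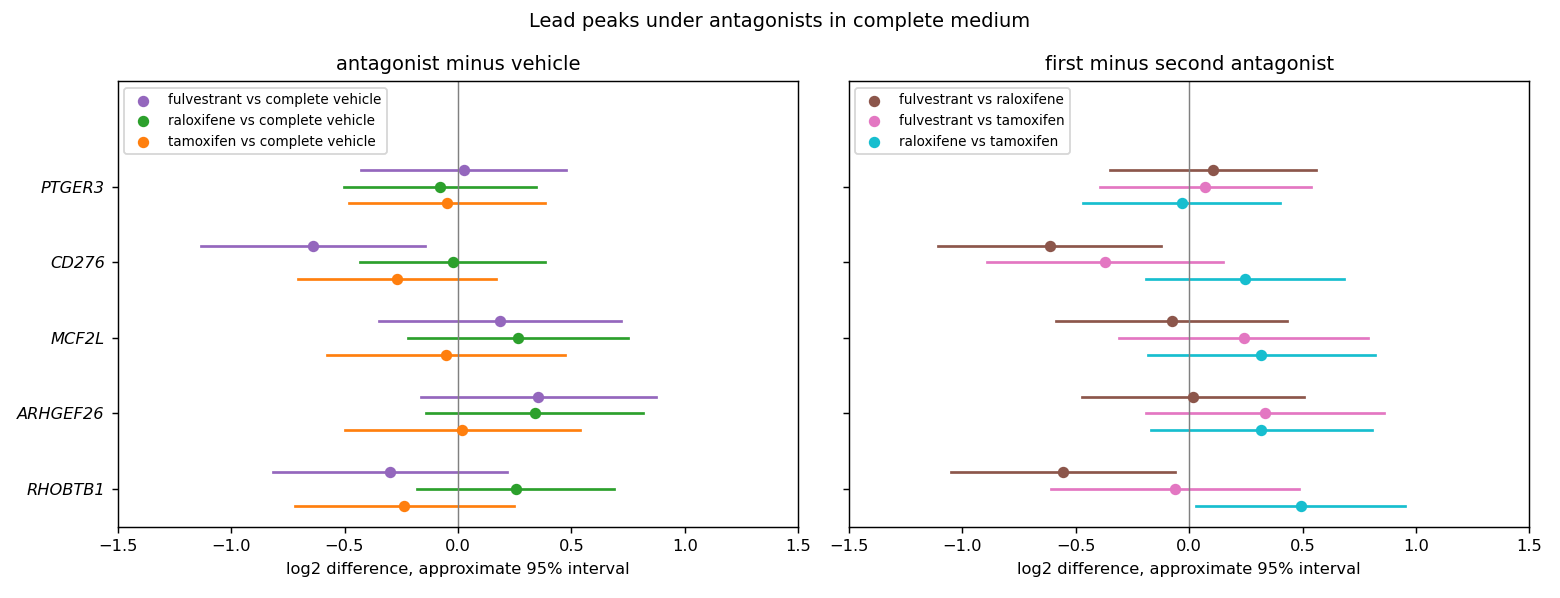
Fitted log2 differences of the 5 lead peaks (points) with approximate 95% intervals (lines), for each antagonist minus vehicle on the left and for pairs of antagonists on the right. The intervals exclude 0 for CD276 under fulvestrant on the left and for CD276 and RHOBTB1 in fulvestrant minus raloxifene and RHOBTB1 in raloxifene minus tamoxifen on the right, and none of these was called after adjustment.

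Fulvestrant, a steroid with a long side chain, was compared with raloxifene, a benzothiophene, and tamoxifen, a triphenylethylene, at the same 100 nM and 1 h, in 3 pairs. None of the 114 peaks was called in any pair by edgeR, beside 0.000638%, 0% and 0% of all tested peaks, and DESeq2 called none either. At an unadjusted p under 0.05 there were 8, 6 and 5, beside 5.16%, 5.27% and 3.92% of all tested peaks. Fulvestrant minus raloxifene was -0.61 (interval -1.11 to -0.12) at CD276 and -0.55 (interval -1.05 to -0.06) at RHOBTB1, both with an edgeR adjusted p of 0.964. Raloxifene minus tamoxifen was 0.49 (interval 0.03 to 0.95) at RHOBTB1, with an edgeR adjusted p of 1. The other lead peak differences ran from -0.37 to 0.34, all with intervals that include 0. Adjustment was over all tested peaks of each pair.

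Among the other member peaks the smallest antagonist p belonged to chr13:113035000-113035301, inside MCF2L and 122 kb from its lead peak. Vehicle libraries held 6.81, 6.50, 6.69 and 3.80 CPM and fulvestrant libraries 3.29, 2.34, 3.66 and 1.57 CPM, with no overlap. The difference was -1.004 (SE 0.26), with an unadjusted p of 0.000262 and an edgeR adjusted p of 0.9996. Tamoxifen libraries held 4.45, 4.10, 4.09 and 3.94 CPM (-0.55, unadjusted p of 0.0182) and raloxifene libraries 7.97, 4.203, 3.37 and 6.55 CPM (-0.13). Without the 2 vehicle libraries of conflicting labels the differences were -1.14 (fulvestrant), -0.685 (tamoxifen) and -0.264 (raloxifene). Starved vehicle (5.16 ± 1.09 CPM) and estradiol libraries (4.78 ± 0.565 CPM, SD, n = 4) overlapped at this peak. At PTGER3, chr1:71033227-71033427 was at -1.62 with fulvestrant and chr1:70990535-70990735 at -1.12 with raloxifene, with unadjusted p-values of 0.00663 and 0.00377. At ARHGEF26, chr3:154077761-154077971 was at -1.15 with fulvestrant (unadjusted p of 0.0251). At RHOBTB1, chr10:61016713-61016951 in the run of lower peaks was at -1.004 with tamoxifen (unadjusted p of 0.0245). All 4 had an edgeR adjusted p of 0.9996 or 1. Without the 2 libraries of conflicting labels they were, in the order named, -1.735, -0.699, -1.14 and -0.585, with unadjusted p-values of 0.00954, 0.148, 0.0567 and 0.301. Other peaks named by the same rule rose. At RHOBTB1, chr10:60848274-60848483 was at 0.59 with raloxifene and chr10:60870427-60870630 at 0.80 with fulvestrant (edgeR unadjusted p of 0.0187 and 0.0432). At PTGER3, chr1:70847087-70847354 was at 0.62 with tamoxifen (edgeR unadjusted p of 0.0434). None of these rises was called, and without those 2 libraries they were 0.39, 0.206 and 0.576.

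The families of PTGER3, CD276, MCF2L and ARHGEF26 were followed in peaks within 50 kb of related genes, without the member peaks. Around 19 genes of prostanoid signalling 2 of 258 tested peaks (0.775%) were called higher with estradiol, around 14 genes of the B7 family and its partners 1 of 118 (0.847%) and around 41 Dbl-type exchange factors 8 of 987 (0.811%). None was called lower, and these shares stand beside 0.813% of all tested peaks. The median estradiol differences were -0.01, -0.04 and -0.02.

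SLCO2A1, the prostaglandin transporter, had the steepest of these, a peak 10.3 kb from the gene at chr3:134040120-134040360 that rose from 0.109 ± 0.163 to 2.62 ± 0.379 CPM (log2 4.17, SE 0.60). The edgeR adjusted p was 4.26e-07, and complete vehicle held 1.63 ± 0.586 CPM. PTGES, a prostaglandin E synthase that makes the EP3 ligand, had a peak 2.35 kb away that rose from 3.59 to 7.12 CPM with estradiol (1.20, SE 0.27, edgeR adjusted p = 0.00548) and held 15.9 CPM in complete vehicle (2.35, SE 0.23, edgeR adjusted p = 1.99e-12). The B7 call was a peak 39.5 kb from CD80, nearer to PLA1A, at 1.00 (SE 0.25, edgeR adjusted p = 0.0219).

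Among the exchange factors, PREX1 rose from 3.04 to 13.4 CPM (2.36, SE 0.26) at a peak inside the gene and held 13.1 CPM in complete vehicle. ARHGEF10L rose by 2.06 (SE 0.32) and ARHGEF28 by 2.21 (SE 0.36), with edgeR adjusted p-values of 2.81e-06 and 9.1e-06 and 1.49e-08 at PREX1.

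Between media the 3 families had 28 higher and 15 lower (10.9% and 5.81%), 8 and 12 (6.78% and 10.2%) and 87 and 90 (8.81% and 9.12%), beside 7.93% and 9.91% of all tested peaks.

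At the limit of 50 kb only the outermost peak inside and the nearest peak outside were looked at for each gene. Neither was tested at PTGER3, and the inner one was not tested at MCF2L. Those with a value had no large estradiol difference. Where the outermost peak just inside had a value, it was 0.30 (CD276, 47.3 kb), -0.29 (ARHGEF26, 44.0 kb) and 0.22 (RHOBTB1, 45.2 kb). The nearest peaks just outside, where tested, were at 0.0011 (CD276, 50.5 kb), -0.23 (MCF2L, 54.2 kb), 0.04 (ARHGEF26, 61.0 kb) and -0.02 (RHOBTB1, 50.2 kb). Of the 137 member peaks 84 lie inside one of the 5 genes, and 21 lie nearer to another gene.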

How the data were processed

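ATAC-seq was run on T47D cells. The submitters' processing notes name hg38 and the tools Bowtie2 2.4.4, cutadapt 1.8.1 and SAMtools 1.9. Not given in the sources used here are the peak caller, the counter, how duplicates and the Tn5 shift were treated, and whether peak starts count from 0 or 1. The deposited values are whole-number counts per peak, not normalized, in 1 peak set for 24 libraries, and no column of values was left out (0).

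In R 4.3.3 all libraries were fitted together in edgeR 4.0.16, 1 mean per group, after filterByExpr (minimum count 10, minimum total 15) and TMM scaling. Two-sided quasi-likelihood F-tests were adjusted (Benjamini-Hochberg) across the 156745 peaks kept, with 0.05 as threshold. Each SE was derived from the log2 difference and its F value, and 95% intervals are 1.96 SE, so both are approximate. Fitted differences weigh libraries by depth and can differ from ratios of mean CPM. CPM uses TMM-scaled totals, and log2 CPM a prior count of 2. The fit was tested on simulated data.

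Gene intervals, symbols and promoters come from RefSeq (GRCh38.p14). PTGER3 has no promoter entry. Distances of lead peaks from a start are to the nearest listed start of that gene. A lead peak is the called peak with the largest estradiol difference at or above median level. Also named per gene are up to 3 further peaks called between media and the smallest p per antagonist, by rule. The results of 1 gene list are not reported here. The members, gene lists and tests were chosen with earlier results of these data known. Alternatives were other scalings, filters and groups in the fit, DESeq2 1.42.0, subsets of libraries, a replicate block and narrower windows. Same-numbered libraries of compared groups correlated at -0.128 to 0.126, and the numbers were not taken as pairs in the main fit. By comparison, the same number was the best match for 0 to 3 of 4 libraries. Counts with a replicate block are given below.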

Additional observations from a re-analysis of the deposited data

Results flagged for a closer look

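At the PTGER3 lead peak, starved vehicle replicate 2 held 0.995 CPM, set apart from the other 3 starved vehicle libraries at 0.364 to 0.461 CPM. The gap is 0.846 of the group's range, above the critical value of Dixon's test for 4 libraries. It rests on 8 counts, beside 4, 1 and 4. In 30 groups checked (5 lead peaks in 6 groups), chance alone gives about 1 flag in 20. Without this library the estradiol log2 difference at PTGER3 was 3.77.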

How the results depend on the processing

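The 5 lead peaks were called with estradiol in all 21 settings run and between media in all 21. The genes were chosen for their estradiol rises, and the comparison of media shares the starved vehicle libraries, so these calls test nothing. The count called higher with estradiol was 5 to 6 when single libraries were left out, with none called lower. Over all tested peaks the count called higher was 954 to 1210 in those fits. The replicate block gave 7 higher with estradiol in place of 5, and 17 higher and 13 lower between media. Over all 156745 tested peaks it gave 1570 higher with estradiol in place of 1274. Between media it gave 13859 higher and 17079 lower in place of 12423 and 15537. The peaks beyond the leads that some alternatives called were chr10:60848274-60848483 near RHOBTB1 (6 settings) and chr3:154220509-154220748 in ARHGEF26 (4 settings), both next to a lead peak. The count called higher between media was 12 to 18 with single libraries left out, and 8 with replicates 3 and 4 only. Over all tested peaks it was 9130 to 12663 with single libraries left out, and 4293 of 160761 with replicates 3 and 4. The count called lower between media was 8 to 14 with single libraries left out, the 8 being without complete vehicle replicate 3. It was 8 with peaks above the median level only, 6 with replicates 1 and 2 only, 6 with replicates 3 and 4 only, 6 without the 2 vehicle libraries of conflicting labels, 7 in a window of 10 kb and 4 inside the genes only. Fewer libraries or fewer peaks enter in each of these. Over all tested peaks the count called lower was 12247 to 15500 with single libraries left out. It was 9846 of 78373 above the median level, 11191 of 155719 with replicates 1 and 2, and 6270 of 160761 with replicates 3 and 4. Without the 2 vehicle libraries it was 9320 of 171350. The narrower windows use the main fit, with 15537 of 156745. No antagonist or pair of antagonists gave a call among members in any setting (0 to 0). Over all tested peaks the most were 268 higher and 13 lower of 160761, for fulvestrant minus tamoxifen with replicates 3 and 4 only. Of the 15 antagonist differences of lead peaks 11 changed sign in 1 or more settings, and the cause was not tested. No value that had been called changed its sign. Depth limits the lead peaks most in starved vehicle, where 10 to 30 counts per group stand behind them, and under fulvestrant, whose replicate 4 gave 0 to 3 counts at each.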
